A study of Mus musculus with 4 samples.

Results

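The 10 chemokine genes described here were chosen by name: Cxcl1, Cxcl2, Cxcl10, Cxcl12, Cxcl14, Ccl2, Ccl3, Ccl5, Ccl7 and Cx3cl1. They were read by 12 probes out of 55646 on a 1-colour mouse gene expression array, which named 19677 genes with a gene symbol. Of the 10 genes, 8 were well above background on at least 1 array; Ccl3 and Ccl7 were above background on none. The tissue was retinas grown in floating culture from mouse Nrl-GFP induced pluripotent stem cells (3D-retinas), in which rods carry a green fluorescent reporter, and brightly fluorescent retinas had been picked by hand. Treatment of all groups began on differentiation day 23 and RNA was taken on day 25, at the onset of photoreceptor degeneration according to the labels. One group received the ethanol vehicle. The other 3 received 4-hydroxytamoxifen (4-OHT, an active metabolite of tamoxifen) at 5 µM, given alone, together with vitamin E at 400 µM, or together with lutein at 200 nM. The last groups are called vitamin E and lutein here, although both also contained 4-OHT, and no sample received a supplement without the drug.

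RNA of 24 3D-retinas was pooled for the single array of each group, which leaves every difference without a replicate check or a p-value. The 4 arrays shared 1 slide, and a group cannot be told apart from its place there. The share of gene spots called well above background was 51.3% to 54.5%, with no saturated gene spot. All 9 listed rod genes were well above background on every array. Their summed level, however, was lowest on the 4-OHT array.

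Chemokines are small secreted proteins that bind G protein-coupled receptors and direct the movement of leukocytes. An inflammatory group, which includes Cxcl1, Cxcl2, Cxcl10, Ccl2, Ccl3, Ccl5 and Ccl7, is usually silent and is switched on through NF-kappaB and interferon signalling. Another group, with Cxcl12, Cxcl14 and Cx3cl1, is made in resting tissue. In the retina, glia and microglia are known sources of inflammatory chemokines, and neurons of Cx3cl1.

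Levels are given as the background-subtracted intensity of a probe in percent of the 75th percentile of the gene spots on its array. Levels of different probes are not comparable with each other. For a probe that the scanner software did not call well above background, the level printed is its own. Its difference, however, was taken from a floor, or from its own level where higher, and is a bound, worded as at least so many fold. Where its own level was used, the bound equals the measured difference and is given without those words. The floor of an array was the lowest level among probes with every spot well above background, between 4.30% and 5.70%. Probes detected in some of their spots only were left out of the floor, and every bound depends on that choice. A difference of 2-fold was the fixed limit for counting a gene. Spot noise, given below as the spot SD of a difference, depended on brightness. It was estimated from probes printed 10 times, whose log2 within-array SD was 0.24 to 0.32 below a signal of 100, 0.10 to 0.11 between 100 and 1000, and 0.05 to 0.06 above 1000. It holds no variation between cultures. Of the 12 chemokine probes, that of Ccl2 had 10 spots per array and the others 1.

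The drug was first compared with its vehicle. Of the 10 chemokine genes 8 could be measured, and 4 were at least 2-fold higher with 4-OHT, all of them inflammatory: Cxcl10, Ccl2, Cxcl1 and Cxcl2. In the same comparison 5.83% of all measured genes passed that limit upward. The 4 genes were not well above background in vehicle, so their differences are bounds. Cxcl14, at 2.01-fold, and Cxcl12 by its brighter probe were lower by at least 2-fold, against 3.4% of genes. A second Cxcl12 probe was at least 1.37-fold higher with 4-OHT, so the direction of Cxcl12 is not settled. The median log2 difference of the 8 was 0.76, beside -0.13 over all 13870 genes measured.

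The 250 bases before the annotated start of Cxcl10, Cxcl1 and Cxcl2 are shown because these were higher with 4-OHT. Those of Cxcl12 are shown because its brighter probe, though not its other probe, was lower. They come from RefSeq on the GRCm38.p6 build, read 5′ to 3′ on the strand of the gene. Cxcl10 is at chr5:92348890-92349139 on the minus strand, Cxcl1 at chr5:90890995-90891244, Cxcl2 at chr5:90903649-90903898 and Cxcl12 at chr6:117168285-117168534, these on the plus strand. Capitals mark matches on either strand to the NF-kappaB consensus, the AP-1 site TGANTCA or the interferon response element (GAAA, any 2 bases, GAAA).
Cxcl10: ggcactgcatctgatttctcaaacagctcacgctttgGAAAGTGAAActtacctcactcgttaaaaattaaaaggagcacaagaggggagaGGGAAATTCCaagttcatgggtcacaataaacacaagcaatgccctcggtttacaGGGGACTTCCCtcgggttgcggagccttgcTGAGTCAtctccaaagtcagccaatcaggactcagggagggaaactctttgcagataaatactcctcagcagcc
Cxcl1: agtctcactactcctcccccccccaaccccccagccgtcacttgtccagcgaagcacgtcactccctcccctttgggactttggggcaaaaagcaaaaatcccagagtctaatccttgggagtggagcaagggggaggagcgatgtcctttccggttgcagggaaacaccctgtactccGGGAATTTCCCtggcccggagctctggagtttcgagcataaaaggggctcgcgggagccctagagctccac
Cxcl2: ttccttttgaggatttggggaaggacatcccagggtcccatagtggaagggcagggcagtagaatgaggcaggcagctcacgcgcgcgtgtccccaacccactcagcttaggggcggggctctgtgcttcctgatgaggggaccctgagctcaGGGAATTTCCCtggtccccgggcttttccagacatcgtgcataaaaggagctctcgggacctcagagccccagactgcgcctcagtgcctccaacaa
Cxcl12: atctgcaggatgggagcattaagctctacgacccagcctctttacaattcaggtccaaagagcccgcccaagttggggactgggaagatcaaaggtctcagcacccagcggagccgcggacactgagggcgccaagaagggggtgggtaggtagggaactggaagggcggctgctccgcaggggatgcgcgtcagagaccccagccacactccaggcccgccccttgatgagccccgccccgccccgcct

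In Cxcl1 and Cxcl2 the capitals are the same 11 bases, GGGAATTTCCC, in which 2 NF-kappaB matches on opposite strands overlap, 71 to 61 bases before the start of Cxcl1 and 97 to 87 before that of Cxcl2. Cxcl10 had an NF-kappaB match from 159 to 150 bases and a pair of overlapping matches from 104 to 94 bases before its start. It also had the AP-1 site TGAGTCA at 74 to 68 bases and the interferon element GAAAGTGAAA at 213 to 204 bases. Of 27025 promoters of the same length, 7.01% held an NF-kappaB match, 6.87% an AP-1 match and 3.04% an interferon element. The table held 7 of the 10 chemokine genes: these 4, Ccl3, Cxcl14 and Cx3cl1. Cxcl14 had an interferon element, GAAACAGAAA, 172 to 163 bases before its start, and no match to these letters lay in the windows of Cxcl12, Ccl3 or Cx3cl1. A match describes the letters and not a bound factor.

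**Figure D1:**
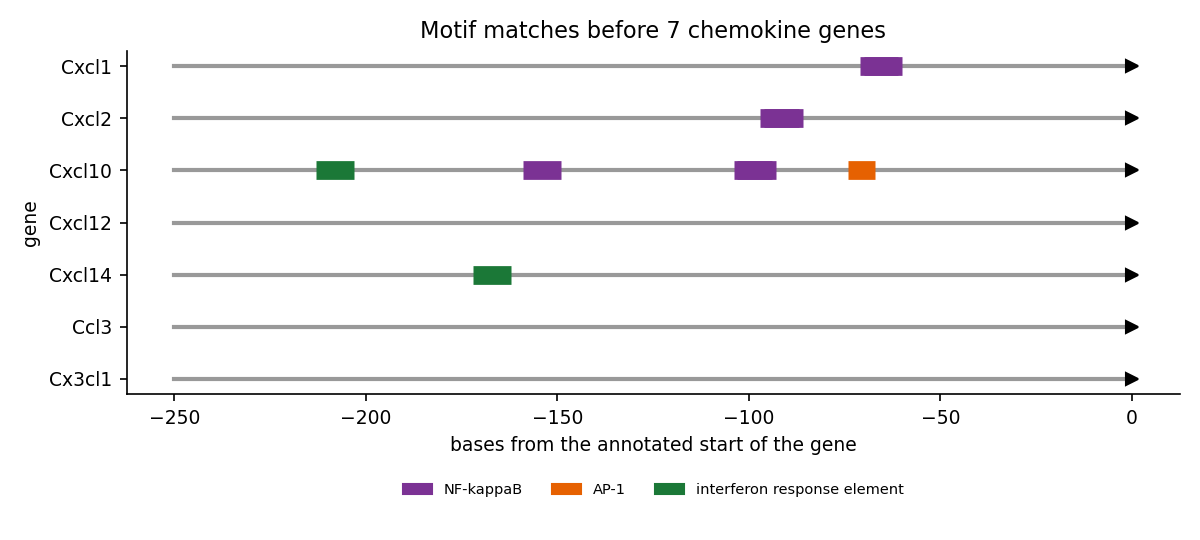
Matches to 3 motifs in the 250 bases before the annotated start of 7 chemokine genes; the horizontal axis is the distance from the start in bases and the triangle is the start. NF-kappaB matches lie before Cxcl1, Cxcl2 and Cxcl10, and Cxcl10 is the gene with all 3 motifs.

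Cxcl10 draws T cells and natural killer cells through Cxcr3. Its reference mRNA probe, at chr5:92775781-92775840 on the mm9 build of the array, read 1.27% in vehicle, 119% with 4-OHT, 1.10% with vitamin E and 89.1% with lutein. It was therefore high on the 4-OHT and lutein arrays and not well above background on the vehicle and vitamin E arrays. The 4-OHT level was at least 23.1-fold above vehicle (log2 difference at least 4.53). A second Cxcl10 probe, at chr5:92776616-92776675 and drawn from a cDNA clone, was not well above background on any array, with levels from 0.965% to 1.21%. The Cxcl10 values thus rest on 1 probe with 1 spot per array.

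Ccl2 attracts monocytes through Ccr2. Its probe lies at chr11:81850650-81850709. The 10 spots ranged from 1.08% to 1.89% in vehicle, from 77.2% to 97.2% with 4-OHT, from 0.899% to 2.48% with vitamin E and from 67.7% to 80.9% with lutein. None of the spots was well above background on the vehicle and vitamin E arrays, and all 10 were on the 4-OHT and lutein arrays. The lowest 4-OHT spot lay above every vehicle and vitamin E spot. The mean levels were 1.34%, 87.6%, 1.39% and 74.8%, and 4-OHT was at least 17.0-fold above vehicle. These are repeat spots of a single RNA sample per array and not replicates of a group.

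**Figure D2:**
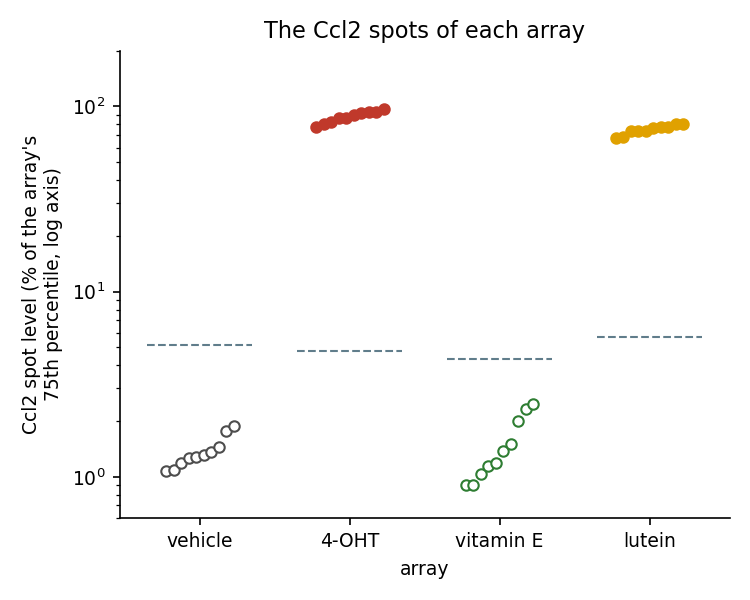
Level of each Ccl2 spot, 10 per array, in percent of the 75th percentile of that array on a log axis; filled circles were well above background, open circles were not, and dashed lines mark the floor of each array. The spots of 4-OHT (77.2% to 97.2%) and lutein (67.7% to 80.9%) lie far above those of vehicle and vitamin E.

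Cxcl1 and Cxcl2 attract neutrophils through Cxcr2, and their probes lie 12.7 kb apart on chromosome 5, at chr5:91321845-91321904 and chr5:91334534-91334593. Cxcl1 read 1.11% in vehicle, 64.4% with 4-OHT, 0.931% with vitamin E and 33.4% with lutein. Cxcl2 read 1.22%, 16.7%, 1.02% and 6.97% on the same arrays. Both were well above background with 4-OHT and with lutein only. The 4-OHT levels were at least 12.5-fold (Cxcl1) and at least 3.24-fold (Cxcl2) above vehicle. With normexp background correction the Cxcl2 bound was 0.91 on the log2 scale, short of 2-fold. The same correction gave smaller log2 bounds for Cxcl1 (2.35), Cxcl10 (2.94) and Ccl2 (2.63), all past 2-fold.

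The other inflammatory members did not share this pattern. Ccl7, a monocyte attractant, has its probe 10006 bases from that of Ccl2 on chromosome 11, and read between 1.16% and 1.48% on the 4 arrays, never well above background. Ccl3, an attractant of monocytes and macrophages, read between 1.07% and 1.35% and was likewise undetected. The probes lie at chr11:81860656-81860715 for Ccl7 and chr11:83461358-83461417 for Ccl3. For both genes no fold can be given, and a low level of RNA would not be visible. Ccl5, which attracts T cells and has its probe at chr11:83339296-83339355, read 7.16% in vehicle, 6.35% with 4-OHT, 4.82% with vitamin E and 6.42% with lutein. These values are near the floor, and the difference of 4-OHT from vehicle (log2 -0.17) was smaller than the spot SD of 0.43.

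**Figure D3:**
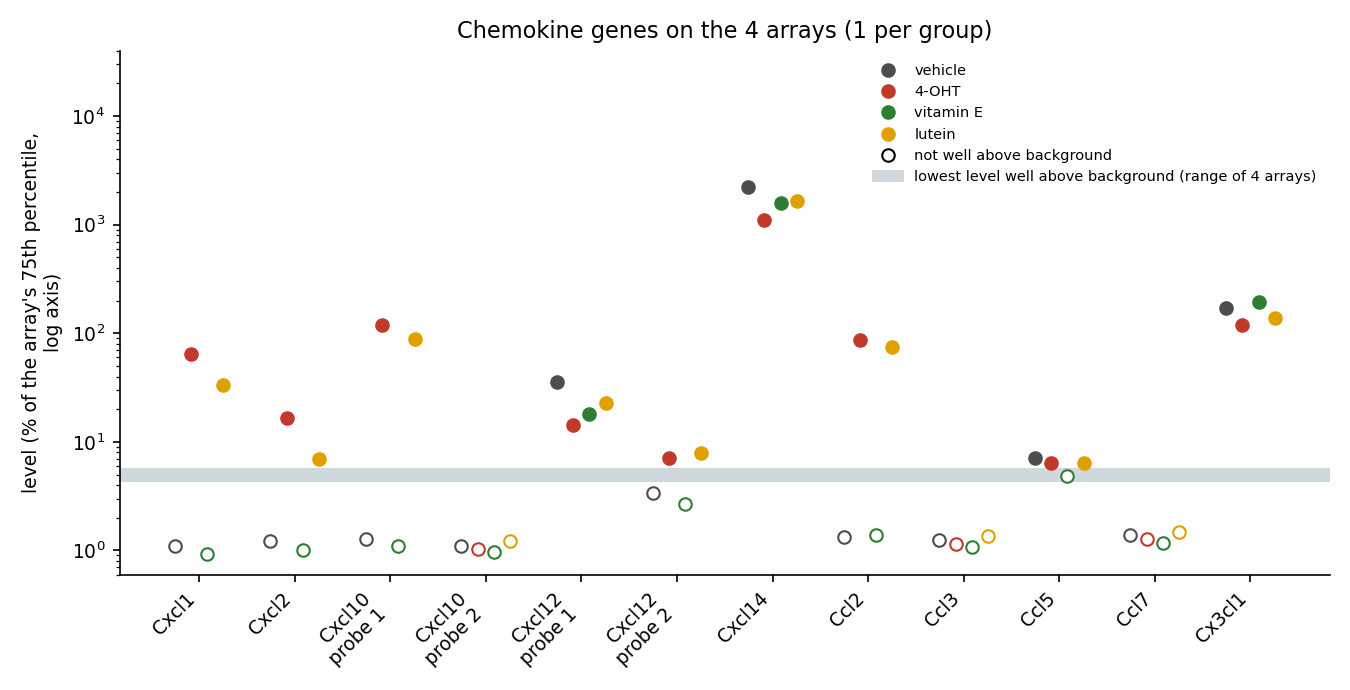
Level of every chemokine probe on the 4 arrays in percent of the array's 75th percentile, on a log axis; open circles were not well above background and the grey band (4.30% to 5.70%) is the range of the floors. Cxcl1, Cxcl2, Cxcl10 and Ccl2 are filled on the 4-OHT and lutein arrays only, and Cxcl12 probe 1 and Cxcl14 have their highest level in vehicle.

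Cxcl14, a chemokine of epithelia and neural tissue, was well above background on every array by its probe at chr13:56390078-56390137. It read 2220% in vehicle, 1100% with 4-OHT, 1580% with vitamin E and 1640% with lutein. Vehicle was highest and 4-OHT lowest, while vitamin E and lutein lay between and differed by less than the spot SD of 0.07 (log2 -0.06). The difference of 4-OHT from vehicle was log2 -1.01, which is 2.01-fold lower and lies at the limit, and after quantile normalization it was -0.82. In pooled RNA, fewer cells of a type and less RNA per cell cannot be told apart. The summed level of the 9 rod genes moved the same way, at 115000% in vehicle, 53200% with 4-OHT, 90700% with vitamin E and 68300% with lutein; their part in the Cxcl14 difference was not tested.

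Cxcl12, the ligand of Cxcr4 and Ackr3, had 2 probes that disagreed. Probe 1, annotated to transcript variant 1, lies at chr6:117125026-117125085 and probe 2, annotated to variant 3, at chr6:117131227-117131286 on mm9. Their first 30 bases are shown because the direction of Cxcl12 depended on which was read.
Cxcl12 probe 1: gctgtaaacctcctaccgtatgtgggaatt
Cxcl12 probe 2: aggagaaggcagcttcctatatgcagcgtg

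Cxcl12 probe 1 read 35.4% in vehicle, 14.2% with 4-OHT, 18.2% with vitamin E and 22.7% with lutein, and was well above background throughout. Vehicle was highest, and 4-OHT was 2.50-fold lower (log2 -1.32, spot SD 0.31). Probe 2 read 3.38%, 7.06%, 2.67% and 7.93%, and only the 4-OHT and lutein values were well above background. By probe 2, 4-OHT was at least 1.37-fold above vehicle and vitamin E at least 1.64-fold below 4-OHT. The arrays on which probe 2 was detected were those on which Cxcl1, Cxcl2, Cxcl10 and Ccl2 were detected. The mean of both probes gave -0.43 for 4-OHT against vehicle and normexp correction of probe 1 gave -0.82, both short of 2-fold. For vitamin E against 4-OHT the mean of both probes gave -0.18, where probe 1 alone gave 0.36.

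Cx3cl1, a membrane-tethered neuronal chemokine for microglia with its probe at chr8:97306185-97306244, read 170% in vehicle, 119% with 4-OHT, 196% with vitamin E and 139% with lutein. It was well above background on all arrays and short of 2-fold in all 6 comparisons. The order was vitamin E, vehicle, lutein and 4-OHT, and each step, log2 0.21, 0.29 and 0.22, exceeded its spot SD of 0.12 to 0.15. Its receptor Cx3cr1 was not well above background on any array.

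The comparison of vitamin E with 4-OHT alone asked how levels differed with that supplement. Cxcl10, Ccl2, Cxcl1 and Cxcl2 were all not well above background with vitamin E. They were at least 27.6-fold, 20.4-fold, 15.0-fold and 3.87-fold lower than with 4-OHT alone. Normexp correction gave smaller log2 bounds of -3.15, -2.87, -2.61 and -1.11, in the same order. These 4 of the 8 measured members were at least 2-fold lower, where 5.07% of 13907 genes were. None of the 8 was at least 2-fold higher, where 1.45% of genes were, and the median log2 difference was -1.18 beside 0.17 over all genes. Cx3cl1 and Cxcl14 lay on the other side of 0, at 0.72 (spot SD 0.11) and 0.52 (0.08). Cxcl12 had no settled direction, at 0.36 by probe 1, within its spot SD of 0.39, and at least 1.64-fold lower by probe 2. This comparison shares the 4-OHT array with the comparison against vehicle, so their differences are not independent.

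Set against vehicle, the vitamin E array gave 0 of 4 measured members past 2-fold, where 1.1% of 13691 genes were higher and 1.08% lower. Cxcl1, Cxcl2, Cxcl10 and Ccl2 were not well above background on either array and have no fold. Cxcl12 probe 1 was 1.94-fold lower than in vehicle (log2 -0.96, spot SD 0.28), Cxcl14 was 1.41-fold lower and Cx3cl1 1.16-fold higher. Ccl5, well above background in vehicle but not with vitamin E, was 1.48-fold lower by its own level (log2 -0.57, spot SD 0.41).

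The comparison of lutein with 4-OHT alone put the question to the carotenoid. All 8 measured members were well above background on both arrays, so that every difference is measured. Cxcl2 was 2.39-fold lower with lutein (log2 -1.26, spot SD 0.38) and was the single member past 2-fold, where 1.41% of 13810 genes were lower. No member was 2-fold higher, where 0.739% of genes were. Cxcl1 was 1.93-fold lower (log2 -0.95, spot SD 0.15), Cxcl10 1.33-fold lower (-0.41, spot SD 0.15) and Ccl2 1.17-fold lower (-0.23, spot SD 0.15). The Ccl2 difference was small but larger than its spot SD. The ranges of its 10 spots, 77.2% to 97.2% and 67.7% to 80.9%, overlapped in part. After normexp correction the Cxcl2 difference was -0.57, short of 2-fold. Cxcl12 probe 1 and Cxcl14 were 1.60-fold and 1.49-fold higher with lutein, and the median of the 8 was -0.11 beside 0.13 over all genes.

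Against vehicle, the lutein array still had Cxcl10 at least 17.3-fold, Ccl2 at least 14.5-fold and Cxcl1 at least 6.49-fold higher. With normexp correction these log2 bounds were 2.53, 2.44 and 1.59. These were the 3 of 8 measured members past 2-fold, where 3.37% of 13667 genes passed the limit upward and 1.5% downward. The bound for Cxcl2 was 1.35-fold. No member was 2-fold lower; Cxcl12 probe 1 was 1.56-fold, Cxcl14 1.35-fold and Cx3cl1 1.22-fold lower.

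**Figure D4:**
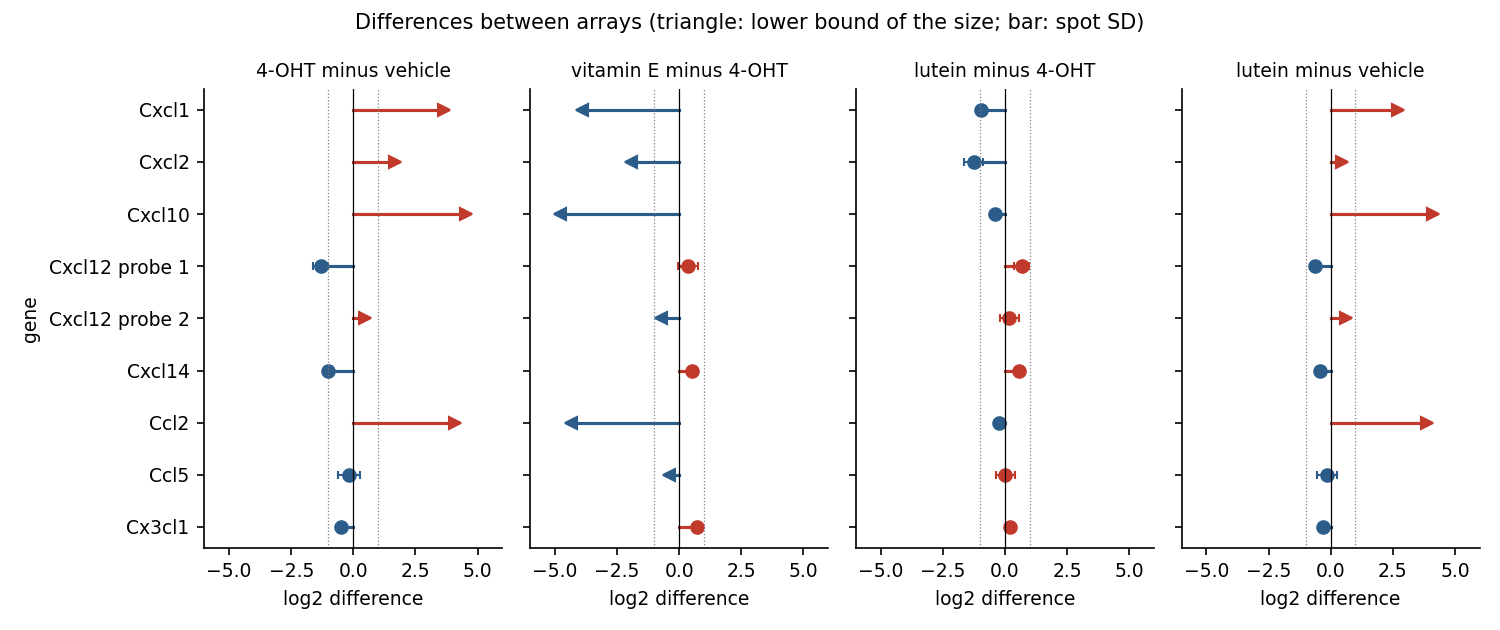
Log2 differences of the measured chemokine probes in 4 comparisons; circles are measured values with the spot SD as a bar, triangles are lower bounds of the size, and dotted lines mark 2-fold. The 4-OHT bounds of Cxcl10 (4.53), Ccl2 (4.09), Cxcl1 (3.64) and Cxcl2 (1.69) face vitamin E bounds of -4.79, -4.35, -3.90 and -1.95. The values of lutein minus 4-OHT lie between -1.26 and 0.68. For lutein minus vehicle the bounds of Cxcl10, Ccl2 and Cxcl1 are 4.11, 3.86 and 2.7.

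The supplements were also compared directly, at doses that differed, 400 µM and 200 nM. With vitamin E, Cxcl10 was at least 20.7-fold, Ccl2 at least 17.4-fold and Cxcl1 at least 7.76-fold lower than with lutein, and Cxcl2 at least 1.62-fold. Normexp correction gave log2 bounds of -2.74, -2.67 and -1.85 for Cxcl10, Ccl2 and Cxcl1. Thus 3 of 8 members were at least 2-fold lower and none higher, where 2.68% and 0.335% of 13725 genes were. Cx3cl1 was 1.41-fold higher with vitamin E.

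The genes whose levels over the 4 arrays lay nearest to those of Ccl2 were sought among 13131 genes well above background on both the 4-OHT and the lutein array. Each gene's log2 levels were centred, and the root mean square distance was taken. Cxcl10 was nearest at 0.18, ahead of Tcstv3 (0.28), the metallothionein Mt2 (0.36), the TWEAK receptor Tnfrsf12a (0.36) and the cytokine signalling inhibitor Socs3 (0.39). Cxcl1 was in place 14 (0.48) and Cxcl2 in place 306 (1.5). Undetected values were set to the floor of their array. Ccl2, Cxcl10 and Tcstv3 were all undetected on the vehicle and vitamin E arrays and so share those values, and the distances between them partly follow from the floor. For the same reason a dimmer gene such as Cxcl2 has a smaller possible range. The order is a description only.

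Among other chemokine ligands, 27 of 28 listed symbols were on the array and 11 were well above background on some array. With 4-OHT 1 of the 11 passed 2-fold upward and 1 downward, near the 5.83% and 3.4% of all genes, and their median was 0.19. Ccl6, a ligand of Ccr1, was detected with 4-OHT alone, at 23.9% and at least 4.65-fold above vehicle, on a single spot. Ccl9, a related gene, read 55.3% in vehicle, 14.5% with 4-OHT, 33.9% with vitamin E and 19.4% with lutein, a 3.80-fold lower value for 4-OHT than for vehicle. Adding vitamin E gave a Ccl9 level 2.33-fold above that of 4-OHT alone. Cxcl9 and Cxcl11, which share the receptor Cxcr3 with Cxcl10, lie 23.0 kb and 12.8 kb from it by their probes. Cxcl9 read 9.84% with 4-OHT and was not well above background elsewhere, with a bound of 1.91-fold against vehicle and of 2.29-fold lower with vitamin E. Cxcl11 was well above background on all arrays by both its probes, which read 38600% and 563% in vehicle and 61500% and 1340% with 4-OHT. Their differences were 0.67 and 1.25. The levels of these probes lay far apart, and whether either reads Cxcl11 was not tested. Ccl4 beside Ccl3, Ccl12 beside Ccl2 and Cxcl3 beside Cxcl2 were undetected on all arrays.

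Of 23 chemokine receptors 8 were well above background on some array. Cxcr2, Ccr1 and Ccr2, receptors of neutrophil and monocyte attractants, were on none. Cxcr3 was detected with vitamin E only, at 8.99%. Cxcr4 and Ackr3, the receptors of Cxcl12, read 26.9% and 6.80% in vehicle and differed from it with 4-OHT by -0.16 and -0.13 on the log2 scale. Ackr4, a scavenging receptor, read 48.1% in vehicle and was not well above background on the other arrays, at least 10.1-fold lower with 4-OHT, although its other probe was above background on none. Cxcr6, the receptor of Cxcl16, was 2.42-fold lower with vitamin E and 2.01-fold lower with lutein than with 4-OHT alone.

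Of 13 measured members of a list of 15 NF-kappaB genes, 6 passed 2-fold upward with 4-OHT and 0 downward, with a median of 0.82, where 5.83% and 3.4% of all genes did. With lutein 4 of 13 did so against vehicle, with a median of 0.85, where 3.37% of all genes did. The feedback inhibitors Tnfaip3 and Tnip1 were not among them, with 4-OHT differences of -0.73 and -0.28 and lutein differences of -0.86 and -0.05. Bcl3, a nuclear cofactor of NF-kappaB, was not well above background in vehicle and was at least 36.9-fold higher. The subunits Relb and Nfkb2 were 15.2-fold and 4.52-fold higher, Nfkbiz, another cofactor, 3.59-fold, the inhibitor Nfkbia 2.34-fold, and Ptgs2, the inducible cyclooxygenase, at least 3.38-fold. A second Relb probe gave a log2 difference of 2.71, beside 3.92 for the first. The subunit Rela had a difference of 0.82, short of 2-fold. With vitamin E 6 of 13 were at least 2-fold lower than with 4-OHT alone, where 5.07% of all genes were. Bcl3 was at least 44.2-fold and Relb 12.7-fold lower. Vcam1, a leukocyte adhesion molecule, was 2.05-fold lower. With lutein 1 of 13 was at least 2-fold lower than with 4-OHT alone, Bcl3 at 2.15-fold, where 1.41% of all genes were.

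The cytokines that classically induce these chemokines were mostly undetected. Of 16 listed cytokines and innate receptors 4 were well above background on some array, and Tnf, Il1b, Il6, Ifnb1 and Ifng were on none. Lif, a glial cytokine, was detected with 4-OHT only and was at least 2.07-fold higher. Among 15 interferon response genes 8 were measured. With 4-OHT 1 of them was at least 2-fold higher and 0 lower, where 5.83% and 3.4% of all genes were. It was Irf1, an interferon-responsive transcription factor, which read 45.2% in vehicle, 447% with 4-OHT, 47.8% with vitamin E and 281% with lutein. Another Irf1 probe was undetected on all arrays. The median of the 8 was 0.08, and Ifit1, Irf7, Rsad2 and Mx1 were undetected on all arrays. Of 6 measured genes of chemokine mRNA decay, 1 was at least 2-fold higher with 4-OHT, where 5.83% of all genes were. It was Zfp36, which destabilises AU-rich mRNAs, at least 2.13-fold higher, and the median of the 6 was -0.02. Of 5 measured proteases that process chemokines none was past 2-fold with 4-OHT, where 5.83% of all genes were higher and 3.4% lower. Adam10 and Adam17, which shed Cx3cl1, had differences of -0.12 and 0.31. With vitamin E, Mmp2, which trims Cxcl12, was 2.02-fold higher than with 4-OHT alone.

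**Figure D5:**
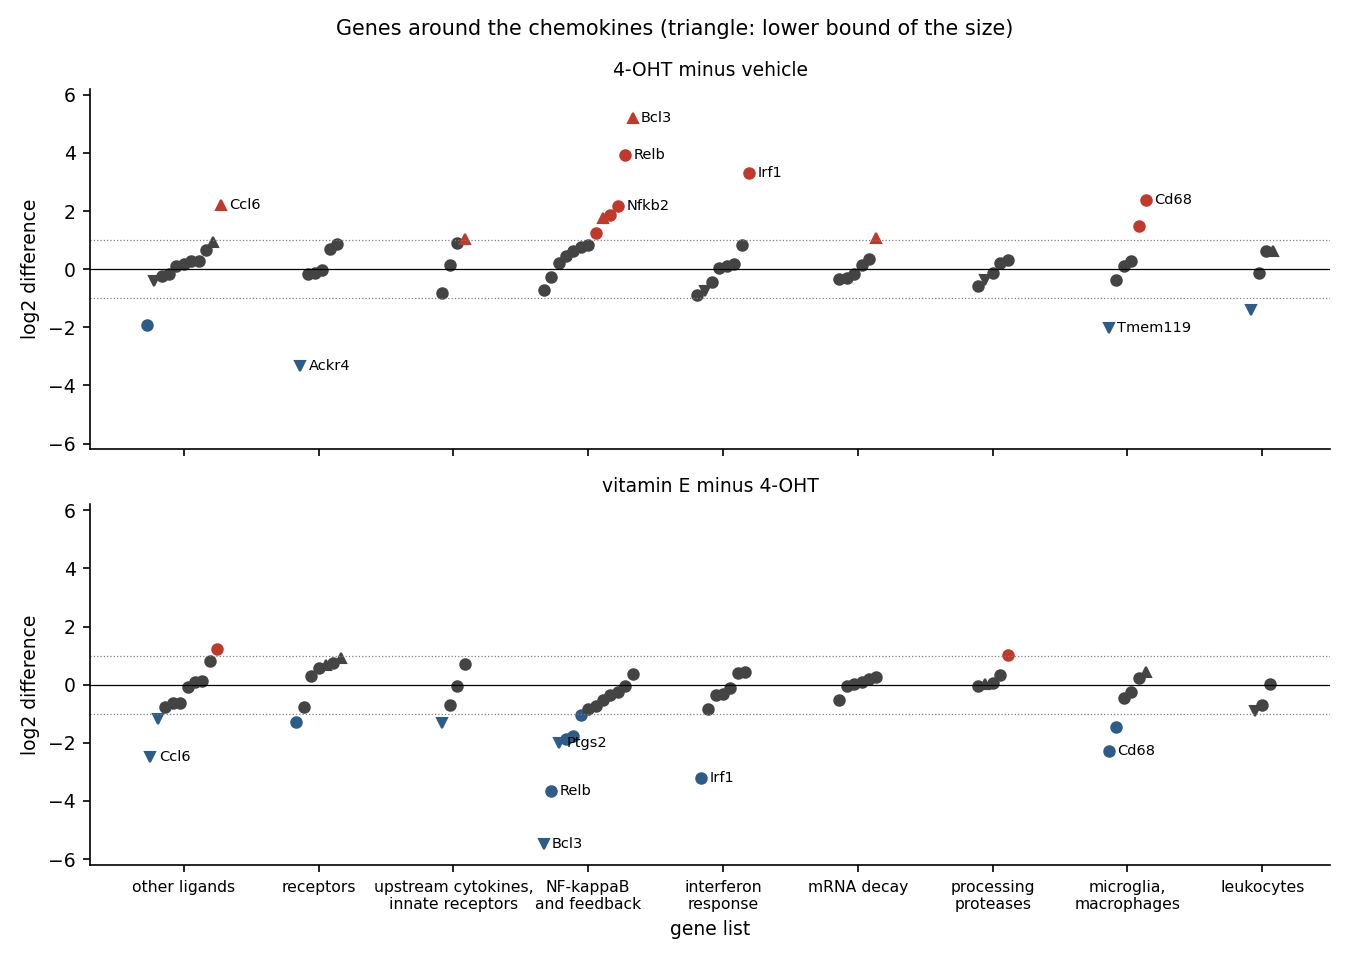
Log2 differences of the measured genes of 9 lists for 4-OHT minus vehicle (top) and vitamin E minus 4-OHT (bottom), 1 point per gene; triangles are lower bounds of the size and dotted lines mark 2-fold. Bcl3 (5.21), Relb (3.92) and Irf1 (3.31) lie past 4-fold upward with 4-OHT, and at -5.47, -3.66 and -3.22 with vitamin E.

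Markers of cells that could supply or follow these chemokines were read on the same arrays. Of 12 microglia and macrophage markers 6 were well above background on some array, and Aif1, P2ry12, Cx3cr1, C1qa, C1qc and Tyrobp were on none. The summed level of the markers detected on each array was 1300% in vehicle, 3200% with 4-OHT, 1290% with vitamin E and 1750% with lutein. Most of each sum came from 1 Itgam probe, so the sums do not describe the marker set. With 4-OHT 2 of the 6 passed 2-fold upward and 1 downward, where 5.83% and 3.4% of all genes did. The median of the 6 was 0.18. The brightest of 3 Itgam probes read 1000%, 2820%, 1040% and 1420%. Another Itgam probe read 7.23% in vehicle and 6.51% with 4-OHT, and the remaining one was not well above background on any array. The lysosomal protein Cd68 was 5.20-fold higher with 4-OHT, the microglial Tmem119 at least 4.04-fold lower, and Csf1r, C1qb and Fcer1g had differences of 0.10, 0.27 and -0.37. The part of such cells in the chemokine differences was not tested.

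The pan-leukocyte gene Ptprc was not well above background on any array. The summed level of the 7 leukocyte markers on the array was 373% in vehicle, 352% with 4-OHT, 334% with vitamin E and 349% with lutein. Most of each sum came from Cd3e, which read 312% to 340%. S100a8, a neutrophil protein, was detected in vehicle only, at least 2.66-fold above 4-OHT, and Ncr1 read 8.03% with 4-OHT only. Cd79a differed by 0.63 by its brighter probe, at chr12:53180558-53180617 on mm9, and whether that probe reads Cd79a was not tested. The other Cd79a probe read 1.11% to 2.63% and was not well above background on any array. Of 8 markers of Muller glia and astrocytes, known sources of Ccl2, 7 were detected. With 4-OHT none of the 7 was past 2-fold, where 5.83% of all genes were higher and 3.4% lower. The median of the 7 was -0.21, beside -0.13 over all genes. The filament gene Vim had a difference of 0.89 and read 1510% in vehicle, 2800% with 4-OHT, 1720% with vitamin E and 3100% with lutein. Gfap was 1.27-fold higher by the brightest of its 3 probes, near the floor, and its other probes were undetected on all arrays. Rlbp1, Kcnj10, Slc1a3, Glul and Aqp4 had differences of 0.21, -0.21, -0.22, -0.24 and -0.74. Of 6 endothelial markers 3 were detected, while Cdh5, Tek and Emcn were undetected. Cldn5, a tight junction protein, was at least 4.39-fold higher with 4-OHT, and Pecam1 and Kdr had differences of 0.29 and 0.14. Pericyte and fibroblast markers summed to between 12.2% and 38.6%, and 4 of 8 were detected. Of 8 pigment epithelium markers 6 were detected, and the 5 measured with 4-OHT had a median of 0.21. Of these 5, 1 passed 2-fold upward, where 5.83% of all genes did. It was the melanin enzyme Dct, 5.37-fold higher; Tyr, Rlbp1, Tyrp1 and Mitf had differences of 0.36, 0.21, -0.13 and -0.12. All 6 ganglion cell markers were detected on every array, with a 4-OHT median of -0.21. Sncg was 2.64-fold lower, and the others lay between -0.40 for Thy1 and 0.21 for Isl1.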

How the data were processed

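Cy3-labelled RNA of 4 pooled samples (50 ng each, per the labels) was hybridised to a 1-colour array. The submitters' processing notes name Agilent Feature Extraction 10.7.3.1 as the software. The deposited intensity had been background-subtracted and detrended, per the file headers, without scaling of one array to another, and surrogates stand in near background. Probe coordinates are those of the mm9 design; whether a probe lies in an exon or a UTR was not analysed here. The lutein file holds 3 significant digits and altered names, so names came from the vehicle array. The authors' value table, a ratio of intensity to 1 number per array (494.2, 434.1, 468.9 and 479.2; medians 0.0794, 0.0949, 0.0736 and 0.0847), served as an alternative; it is linear and uncentred.

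Control and outlier spots were left out (137 to 164 outlier gene spots per array). Log2 intensities minus each array's 75th percentile were averaged per probe, and the probe with the highest mean stood for a gene. A probe with several spots counted as well above background where no fewer of its spots were than were not. RefSeq symbols (GRCm38.p6, names only) were matched for 28314 probes and replaced 1403 names. With 1 array per group, whose number limits the precision, no test was made.

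The members, 18 gene lists (182 of 184 symbols on the array), 6 comparisons and 10 alternatives per comparison were chosen with earlier results of these data known. Named were all members, up to 6 genes of each other list past 2-fold with 4-OHT or vitamin E, detected markers (some only within counts and sums), and the 5 genes most like Ccl2. Other names were chosen after their values were seen. The counting was tested on simulated data. Python 3.11.15, NumPy 2.4.6, pandas 2.3.3, matplotlib 3.10.9, R 4.3.3 and limma 3.58.1 were used.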

Additional observations from a re-analysis of the deposited data

How the results depend on the processing

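Of 263 member differences recomputed under other settings 211 moved by less than the spot SD over all brightnesses (0.16 to 0.19, smaller than that of dim spots) and 52 by more; 0 values past 2-fold changed sign. Below 2-fold, Cxcl12 for vitamin E against 4-OHT went from 0.36 to -0.18 with the mean of its probes, and Cxcl14 for vitamin E against lutein from -0.06 to 0.05 with spike-in scaling. Spike-in scaling on 7 of 10 probes moved the median of all genes by -0.147 for 4-OHT against vehicle and 0.219 for vitamin E against 4-OHT, and left the counts of members past 2-fold at 6 and 4. Requiring detection on both arrays removes every bound by construction: it left 2 of 6 for 4-OHT against vehicle, and 0 of 4, 0 of 3 and 0 of 3 for vitamin E against 4-OHT, lutein against vehicle and vitamin E against lutein. With a 4-fold limit 3 of 6 were counted for 4-OHT against vehicle and 0 of 1 for lutein against 4-OHT. With 1.5-fold, lutein against 4-OHT gave 3 and vitamin E against vehicle 1 in place of 0. Normexp background, which adds an offset of 50 to every spot, gave 0 for lutein against 4-OHT. Cxcl2, the member lost, had signals of 82.9 with 4-OHT and 38.4 with lutein. An added offset makes the log2 difference of such dim spots smaller by construction. The part of the changed background itself was not tested. Replicate numbers pair nothing here. No paired analysis was possible because a group held a single array. Spots near background limit Ccl5, Cxcl2 and Cxcl12 probe 2.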
